A study of Homo sapiens with 30 samples.

Results

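The transcripts described here are divergent promoter transcripts: long noncoding RNAs whose symbol ends in -DT and which are named for a neighbouring gene. Of the 58278 genes listed in each of 30 libraries, 578 had such a symbol. Members were chosen by level: those whose mean over all 30 libraries reached 1 CPM, the counts of a gene relative to its library's total scaled to 1e6. They are 80 genes whose group mean reached that limit in all 10 groups of libraries and 61 whose group mean did so in fewer groups, together 24.4% of the 578. Each was set beside its partner, the gene that shares its name without -DT. Their abundance is a description and not a result. Just inside the limit lay COPS8-DT and BTF3-DT, both at a mean of 1.03 CPM, and just outside it ZNF516-DT at 0.979 and SMC2-DT at 0.959 CPM. The group mean of ANKHD1-DT reached 1 CPM in 3 groups and that of EN2-DT in 2.

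Most promoters in CpG islands start RNA polymerase II in both directions. The upstream product of such a promoter usually ends early at a poly(A) signal, is bound through its cap and its tail by adaptors of the nuclear exosome, and is degraded soon after it is made. Annotated -DT transcripts are the upstream products that are spliced or polyadenylated often enough to be catalogued as genes, and for most of them no function is known. Their level therefore reflects both how often the shared promoter fires and how long the RNA lasts, and the counts used here measure neither separately.

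The libraries came from wild-type HEK293, a line derived from human embryonic kidney, in 10 groups of 3 libraries that the protocols call independent replicates. All cells had been transfected with a plasmid for an EGFP-mCherry fusion used as a mistranslation reporter and sorted for mCherry. An mc-tRNA is a missense-correcting tRNA that puts an amino acid into codons that specify another. There were 5 reporters, each used alone or with 1 mc-tRNA on the same plasmid. EGFP(R65) was set with Ser-tRNA_Arg(CCG), and EGFP(R96Q) with Arg-tRNA_Gln(CUG). EGFP(R96C) had Arg-tRNA_Cys(GCA), while EGFP(R96H) had Arg-tRNA_His(GUG) and EGFP(R96W) had Arg-tRNA_Trp(CCA). The groups with the reporter alone carried no mc-tRNA, and no untransfected cells were used here, so every level below is that of cells that overexpress a reporter. The libraries were made from polyA-selected RNA, so only polyadenylated -DT RNA was counted. The series asks what the mc-tRNAs do to mRNA levels, and each comparison sets a reporter with its mc-tRNA against the same reporter alone.

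Gene totals ran from 39017548 to 55446962 counts per library, and 3 counts, the most that a count of 0 allows, were 0.0541 to 0.0769 CPM. The 6 EGFP(R65) libraries stood apart from the 24 others: they held no counts of the ERCC spike-in RNAs, against 10 to 106 in each of the others, and the reporter and a batch cannot be told apart there. The HEK293 markers PAX2, NEFL, NEFM and INA were all detected, at a summed 88.1 to 191 CPM per library. Their sum was lower than in any library of the reporter alone with 4 of the 5 mc-tRNAs: Ser-tRNA_Arg(CCG) (93.2 to 95 CPM, against at least 106), Arg-tRNA_Gln(CUG), Arg-tRNA_Cys(GCA) (88.1 to 100 CPM, against up to 173) and Arg-tRNA_Trp(CCA) (103 to 125 CPM). With Arg-tRNA_His(GUG) the ranges overlapped (172 to 178 CPM, against 176 to 191). Taken singly, the 4 markers did not move together. By the edgeR test described below, 2 rose and 2 fell with Ser-tRNA_Arg(CCG), and 1 rose and 2 fell with Arg-tRNA_Cys(GCA). With Arg-tRNA_Trp(CCA) 2 fell, and none was called with Arg-tRNA_Gln(CUG) or Arg-tRNA_His(GUG). Of 10 markers of blood, stromal, keratinocyte, endothelial and liver cells, 6 had too few counts to be tested and none was at 0 in every library. Their summed level was 20.7 to 22.9 CPM with EGFP(R96C) and 36.8 to 38.5 with Arg-tRNA_Cys(GCA), where COL1A1, COL3A1 and ALB rose, and 26.5 to 28.5 CPM with EGFP(R65) and 34.9 to 36.7 with Ser-tRNA_Arg(CCG), where PECAM1 and ALB rose and COL3A1 fell. In the other 6 groups it was 18.1 to 27.4 CPM. ALB also rose with Arg-tRNA_His(GUG) and, with COL1A1, with Arg-tRNA_Trp(CCA), where COL3A1 fell. The part of these markers in the results below was not tested. CPM are shares of a library, so a fall of a transcript in fewer cells and less of it per cell cannot be told apart in bulk RNA.

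Positions in GENCODE release 29 (GRCh38) were found for both genes of 124 pairs. All 124 lay on opposite strands. Their starts were within 2 kb of each other in 119 pairs and within 500 bases in 93, with a median gap of 86.5 bases. In 85 pairs the transcripts pointed away from each other from separate starts, and in 39 the starts overlapped. Pairs with starts over 2 kb apart included those of EPM2A-DT, ERICH2-DT, MRNIP-DT and ZNF584-DT. GENCODE types 67 members as antisense, 58 as lincRNA, 9 as processed transcript and 1 as pseudogene, and it types all 128 partners it lists as protein-coding. Exons of 33 members shared bases with exons of the partner, and those of 58 overlapped exons of some gene on the opposite strand. No source used here gives the value of the counting program's strand option, so reads of such overlapping pairs may be split in an unknown way, and counts are also given for the 73 members whose exons overlapped no other gene.

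The members were scarce transcripts. Their median level was 2.59 CPM and per kilobase of exon it was 1.29 CPM. In 124 pairs with a length for both, the partner's level per kilobase was a median 6.40 times the member's, and 14 members stood above their partner. Among the highest per kilobase were VPS13B-DT at 10.2, EMSY-DT at 8.38, PAXIP1-DT at 7.13 and TBC1D22A-DT at 6.76 CPM per kilobase. VPS13B codes for a lipid transfer protein of the Golgi, EMSY for a chromatin protein that binds BRCA2, PAXIP1 for a BRCT-domain protein of histone methyltransferase complexes, and TBC1D22A for a protein with a Rab GTPase-activating domain.

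RefSeq promoter windows of 300 bases (GRCh38.p14), most of which lie before the annotated start, were found for 115 members and 125 partners. Both sets were rich in CpG: the median GC content was 68.3% for members and 68.0% for partners against 58.7% for all 35116 windows, and the median ratio of observed to expected CpG was 0.913 and 0.919 against 0.579. The GC box GGGCGG, searched like the other motifs on both strands, lay in 74.8% of member windows and 45% of all windows, and TGCGCA, the core of the NRF1 site, in 21.7% and 8.24%. The CCAAT box CCAAT was in 38.3% and 34.6%, and TATAAA in 5.22% and 11.5%. The heat shock element cores TTCNNGAA and GAANNTTC were in 7.83% of member windows and 13.5% of all, and the unfolded protein response core TGACGTG in 5.22% and 1.97%. The AP-1 site TGANTCA was in 2.61% and 7.71%, and the cyclic AMP response element TGACGTCA, which contains none of the other motifs, in 2.61% and 1.85%. A match is a description of letters and not a binding site.

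The windows of 4 members that lead the results are printed 5′ to 3′ on the strand of the member, with CCAAT boxes and heat shock element cores in capitals on either strand. RRAGC-DT had the largest rise with Arg-tRNA_Cys(GCA), and ISL1-DT and EIF2AK3-DT were among the 3 largest with Ser-tRNA_Arg(CCG). ZFAND2A-DT went against its partner with Arg-tRNA_Cys(GCA) and Arg-tRNA_Trp(CCA). With Ser-tRNA_Arg(CCG) it did not (log2 changes of 1.10 for ZFAND2A-DT and 0.52 for ZFAND2A).
RRAGC-DT, chr1:38859643-38859942, plus strand: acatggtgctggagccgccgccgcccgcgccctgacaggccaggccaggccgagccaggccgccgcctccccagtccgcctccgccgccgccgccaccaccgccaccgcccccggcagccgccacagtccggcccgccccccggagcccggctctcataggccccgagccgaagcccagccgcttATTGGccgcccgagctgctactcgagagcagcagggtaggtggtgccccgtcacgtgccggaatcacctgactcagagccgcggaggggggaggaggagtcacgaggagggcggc
ISL1-DT, chr5:51383283-51383582, minus strand: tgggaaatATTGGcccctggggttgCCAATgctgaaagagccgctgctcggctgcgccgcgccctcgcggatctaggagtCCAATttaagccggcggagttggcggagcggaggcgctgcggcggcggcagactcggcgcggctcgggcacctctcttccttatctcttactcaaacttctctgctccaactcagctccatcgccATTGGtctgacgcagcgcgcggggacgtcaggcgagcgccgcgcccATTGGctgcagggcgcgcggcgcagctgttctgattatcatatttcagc
EIF2AK3-DT, chr2:88627579-88627878, plus strand: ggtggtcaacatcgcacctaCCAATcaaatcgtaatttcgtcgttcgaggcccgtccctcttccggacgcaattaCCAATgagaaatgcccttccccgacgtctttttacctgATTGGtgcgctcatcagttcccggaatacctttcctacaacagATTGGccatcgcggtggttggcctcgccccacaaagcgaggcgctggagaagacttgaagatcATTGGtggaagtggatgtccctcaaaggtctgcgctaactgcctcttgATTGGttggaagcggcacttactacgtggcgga
ZFAND2A-DT, chr7:1160124-1160423, plus strand: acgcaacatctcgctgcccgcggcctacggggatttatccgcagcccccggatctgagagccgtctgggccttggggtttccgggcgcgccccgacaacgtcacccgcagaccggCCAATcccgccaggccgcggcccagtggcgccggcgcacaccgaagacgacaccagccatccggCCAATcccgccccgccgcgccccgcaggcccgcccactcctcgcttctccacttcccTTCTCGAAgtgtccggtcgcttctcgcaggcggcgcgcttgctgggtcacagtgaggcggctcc
The windows of RRAGC-DT, ISL1-DT and ZFAND2A-DT overlapped those of their partners by 220, 215 and 277 bases, and the RefSeq starts of EIF2AK3-DT and EIF2AK3 lie 365 bases apart. The EIF2AK3-DT window held 6 CCAAT boxes and the ISL1-DT window 5, and no heat shock element core was in either. In the ZFAND2A-DT window a heat shock element core stood between the second CCAAT box and the annotated start, within the bases it shares with the ZFAND2A window. Among windows of members that rose with Ser-tRNA_Arg(CCG), 19 of 37 held a CCAAT box (51.4%), beside 38.3% of all member windows. Among those that rose with Arg-tRNA_Cys(GCA) it was 6 of 20 (30%), and among those that fell with it 23 of 61 (37.7%). Of those that fell with Arg-tRNA_Trp(CCA) 17 of 52 held it (32.7%). In the 37 windows TGCGCA was in 4 (10.8%), beside 21.7% of all member windows, and the GC box in 27 (73.0%), beside 74.8%. Falls with Ser-tRNA_Arg(CCG) were not counted, and these shares were not tested.

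With Arg-tRNA_Cys(GCA) 76 members fell and 25 rose by the edgeR quasi-likelihood test, where a call means an adjusted p under 0.05, and 34 of the falls and 4 of the rises were at least 2-fold. Of all genes tested 30.5% fell and 30.2% rose, beside 53.9% and 17.7% of the members. At least 2-fold were 2524 falls and 2635 rises among the 22321 genes tested. The median log2 change was -0.48 over members and -0.04 over all genes. The libraries of the 2 groups did not overlap for 99 members (70.2%), against 61.8% of all genes. Their summed level went from 607 ± 8.57 to 503 ± 20.3 CPM (SD, n = 3). Of the 73 members without exon overlap, 36 fell and 13 rose. Scaling by library totals moved the median of all genes to -0.59 and the split to 6 rises and 111 falls with a median of -1.02 over members.

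**Figure D1:**
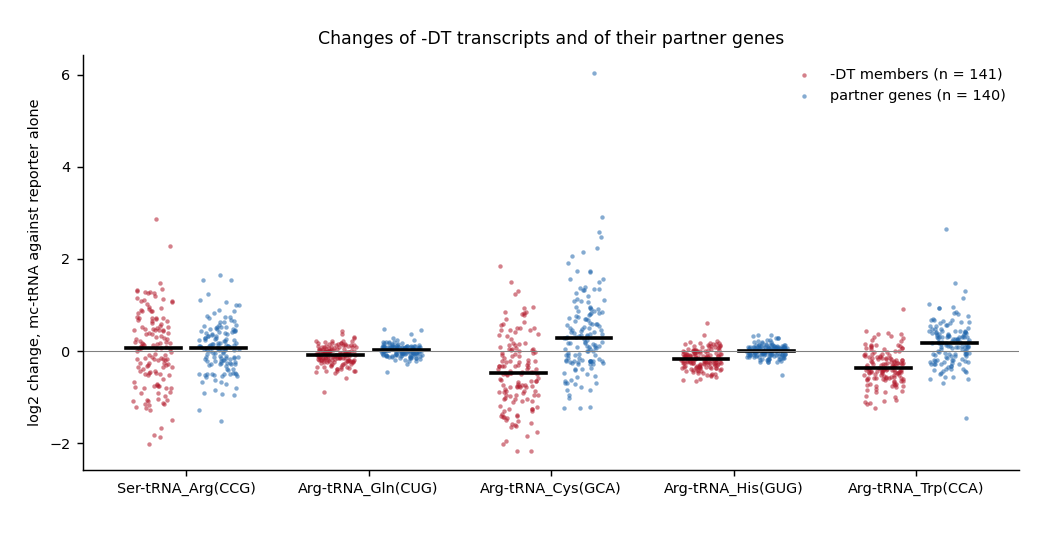
Log2 change with each mc-tRNA against its reporter alone (vertical axis), 1 point per gene, for the -DT members in red and the 140 tested partners in blue; black bars are medians. With Arg-tRNA_Cys(GCA) the member median is -0.48 and the partner median 0.29, and with Arg-tRNA_Trp(CCA) they are -0.36 and 0.18.

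The largest rise with Arg-tRNA_Cys(GCA) was that of RRAGC-DT (ENSG00000228436, chr1:38860000-38919396, plus strand), named for a Rag GTPase that signals amino acid supply to mTORC1. Its 3 reporter libraries stood at 2.40, 2.88 and 2.13 CPM and those with the mc-tRNA at 8.40, 9.26 and 8.95, a log2 change of 1.85 ± 0.15 (SE). RRAGC, the partner, rose nearly as much, by 1.73 ± 0.10, from 25, 25.9 and 20.8 to 74.7, 80.3 and 82.5 CPM. For neither gene did the groups overlap. UBA6-DT (chr4:67701280-68080952, plus strand), named for an E1 enzyme that activates ubiquitin and FAT10, went from 13.1, 12 and 11.3 to 29.9, 29.7 and 30.1 CPM, a log2 change of 1.30 ± 0.08. UBA6 itself rose by 0.37 ± 0.13, and its groups overlapped. Exons of RRAGC-DT and of UBA6-DT each overlap those of 4 genes on the opposite strand. ANKHD1-DT, named for a protein with ankyrin repeats and a KH domain, rose by 1.49 ± 0.23, from 1.00, 0.849 and 1.48 to 2.97, 2.79 and 3.74 CPM. It is a member chiefly through its levels with this mc-tRNA and with Ser-tRNA_Arg(CCG). ANKHD1 rose by 1.19 ± 0.12.

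The largest falls with Arg-tRNA_Cys(GCA) left 2 members under 1 CPM in every library. ZNF132-DT (chr19:58440448-58445849, plus strand), beside a zinc finger gene that had too few counts to be tested, went from 2.83, 2.97 and 3.22 to 0.472, 0.818 and 0.705 CPM, a log2 change of -2.16 ± 0.21. FOXF2-DT, beside the forkhead transcription factor gene FOXF2, went from 1.83, 1.65 and 1.78 to 0.405, 0.141 and 0.644 CPM, also -2.16 (SE 0.29). FOXF2 fell as well, by 1.23 on the log2 scale, from 33.9, 35.3 and 44.6 to 15.9, 16.6 and 16.1 CPM. EOLA2-DT went the other way from its partner: it fell from 6.14, 6.26 and 10.3 to 1.75, 1.69 and 2.18 CPM (-2.02 ± 0.26) while EOLA2 rose from 47.2, 49.5 and 45.5 to 82.2, 78.6 and 86.6 CPM (0.80 ± 0.07). The exons of this pair share bases. In all 3 members no library with the mc-tRNA reached the lowest reporter library.

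The pairs that diverged most with Arg-tRNA_Cys(GCA) were ZFAND2A-DT and CENATAC-DT. ZFAND2A codes for a proteasome-associated protein induced by heat shock and arsenite, and it rose by 6.03 ± 0.12, from 13.5, 13.5 and 10.7 to 843, 825 and 779 CPM. Its divergent transcript ZFAND2A-DT (chr7:1160374-1165267, plus strand) fell from 5.14, 5.03 and 4.80 to 2.97, 3.19 and 3.37 CPM, a log2 change of -0.65 ± 0.15. The pair shares 111 exon bases. CENATAC codes for a protein of the minor spliceosome and rose by 1.57 ± 0.08, from 23.5, 25.1 and 24.2 to 67.3, 72.3 and 76.6 CPM. CENATAC-DT (chr11:118994824-118998004, minus strand), which shares no exon bases with any gene, fell from 3.40, 2.50 and 3.32 to 0.945, 0.621 and 1.01 CPM, by -1.85 ± 0.24.

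**Figure D2:**
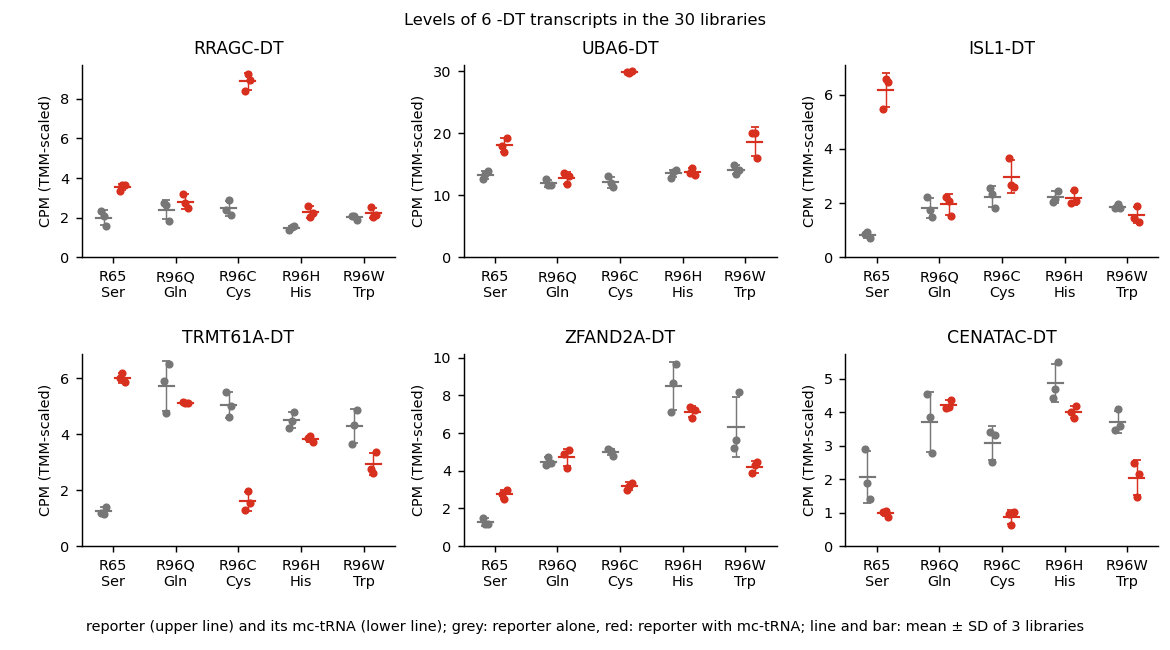
TMM-scaled CPM (vertical axis, linear from 0) of 6 -DT transcripts in every library, by reporter, with grey points for the reporter alone and red points for the reporter with its mc-tRNA; lines and bars are the mean ± SD of 3 libraries. RRAGC-DT and UBA6-DT stand highest with Arg-tRNA_Cys(GCA), ISL1-DT and TRMT61A-DT rise with Ser-tRNA_Arg(CCG), and TRMT61A-DT, ZFAND2A-DT and CENATAC-DT fall with Arg-tRNA_Cys(GCA).

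With Arg-tRNA_Trp(CCA) 62 members fell and 3 rose, against 21.7% and 20.7% of all genes. That is 44.0% and 2.13% of the members. The 6 falls of at least 2-fold were in AJUBA-DT, ARNT2-DT, EN2-DT, EPM2A-DT, MOCS2-DT and ZNF691-DT. Among the 22321 genes tested 905 fell at least 2-fold, a share close to that of the members. No member rose that far, and 778 of all genes did. The median log2 change was -0.36, against -0.03 over all genes. The groups did not overlap for 77 members (54.6%), against 47.8% of all genes, and for 71 of these the mc-tRNA libraries were the lower. The summed level of the members went from 658 ± 44.6 to 539 ± 24.8 CPM (SD, n = 3). Of the 73 members without exon overlap 29 fell and 2 rose. Leaving out each of the 6 libraries in turn gave 41 to 60 falls, the fewest without mc-tRNA replicate 1, and the number of rises was 5 without EGFP(R96W) replicate 3.

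The 3 members that rose with Arg-tRNA_Trp(CCA) were RNF139-DT, UBA6-DT and MRPL20-DT. RNF139 codes for a ubiquitin ligase of the ER membrane. RNF139-DT went from 2.49, 3.26 and 2.88 to 4.78, 5.54 and 5.92 CPM, a log2 change of 0.91 ± 0.16, and its partner from 35.4, 36.9 and 34.9 to 46.6, 49.3 and 44.6 CPM (0.39 ± 0.06). Its rise was 0.95 ± 0.16 with Arg-tRNA_Cys(GCA) and 1.08 ± 0.17 with Ser-tRNA_Arg(CCG), where RNF139 rose as well (0.50 ± 0.06 and 0.55 ± 0.06). UBA6-DT went from 14.9, 13.5 and 14.1 to 20, 20 and 16 CPM (0.40 ± 0.08), and UBA6 stood at -0.05 ± 0.13. MRPL20-DT, beside the gene of a mitochondrial ribosomal protein, rose by 0.37 ± 0.12 and is the one member that fell with Arg-tRNA_Cys(GCA) (-0.30 ± 0.13) and rose with Arg-tRNA_Trp(CCA), which 2.63% of all genes did. The rise was not called without EGFP(R96W) replicate 1 (0.33) or mc-tRNA replicate 3 (0.33) or with library totals (0.24), and the fall was lost without any of EGFP(R96C) replicates 2 and 3 and mc-tRNA replicate 1 (-0.31 to -0.23). RNF139-DT and UBA6-DT alone rose with both mc-tRNAs, which is 1.42% of the members against 13.3% of all genes tested, and 53 partners rose with both.

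Among the largest falls with Arg-tRNA_Trp(CCA) was that of ARNT2-DT (chr15:80344853-80403575, minus strand), beside the gene of a bHLH-PAS transcription factor. It went from 4.39, 5.70 and 5.40 to 2.17, 1.74 and 2.69 CPM (-1.23 ± 0.20), and ARNT2 fell by 0.23 on the log2 scale. AJUBA-DT, beside the gene of a LIM-domain adaptor protein, fell from 1.96, 1.46 and 1.03 to 0.872, 0.695 and 0.501 CPM (-1.11 ± 0.28), with AJUBA at -0.07 ± 0.08 and not called. EN2-DT, beside the homeobox gene EN2, was found mainly in the EGFP(R65) libraries, at 14.8 to 15.5 CPM with the reporter alone and 7.47 to 9.03 with Ser-tRNA_Arg(CCG), and at 0.0675 to 0.781 CPM in the 24 others. Its log2 change of -1.14 ± 0.37 with Arg-tRNA_Trp(CCA) rests on 0.465, 0.440 and 0.594 CPM against 0.324, 0.0869 and 0.273, and it was not called without EGFP(R96W) replicate 3 (-1.01) or mc-tRNA replicate 2 (-0.73). The opposite pairs with the largest gap were again ZFAND2A-DT, at -0.58 ± 0.14 with ZFAND2A at 2.65 ± 0.11, and ATP6V0D1-DT, named for a subunit of the lysosomal proton pump. ATP6V0D1-DT fell from 2.37, 2.06 and 3.00 to 1.62, 1.24 and 1.53 CPM (-0.76 ± 0.19), and ATP6V0D1 rose from a mean of 50.4 ± 2.91 to 125 ± 25.5 CPM (SD, n = 3), by 1.31 ± 0.13 on the log2 scale.

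With Ser-tRNA_Arg(CCG) the members moved both ways in nearly equal numbers: 44 rose and 41 fell, against 26.6% and 30.7% of all genes (57.3% in either direction). That is 31.2% and 29.1% of the members, near the shares of genes at large. Of 4498 protein-coding genes within the members' range of mean CPM, 26.6% rose and 43.4% fell (median log2 change -0.18). Of 315 antisense transcripts with symbols ending in -AS1 and a mean of at least 1 CPM, 29.2% rose and 30.2% fell. Among the members 18 rises and 17 falls were at least 2-fold, beside 2316 and 1865 among the 22321 genes tested. Over members the median log2 change was 0.08, against -0.02 over all genes. The groups did not overlap for 93 members (66.0%), against 66.3% of all genes. The summed level was 406 ± 12.2 CPM with EGFP(R65) and 444 ± 3.83 CPM with the mc-tRNA (SD, n = 3). Among the 73 members without exon overlap 27 rose and 18 fell.

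ISL1-DT (chr5:51372736-51383332, minus strand) rose most with Ser-tRNA_Arg(CCG). It starts 59 bases from ISL1, the gene of a LIM-homeodomain factor of motor neurons, heart and islet cells. Its level went from 0.878, 0.925 and 0.712 to 5.46, 6.58 and 6.46 CPM, a log2 change of 2.88 ± 0.19, whereas ISL1 stood at 8.06, 8.23 and 9.03 against 8.20, 9.54 and 10.6 CPM and was not called (0.16 ± 0.10, adjusted p = 0.162). TRMT61A-DT (chr14:103525010-103529072, minus strand) rose from 1.17, 1.15 and 1.40 to 6.00, 6.20 and 5.86 CPM (2.27 ± 0.15). TRMT61A, the catalytic subunit of the enzyme that methylates an adenosine of the tRNA T loop, fell in the same libraries, from 30.6, 32.7 and 29.3 to 22.4, 22.3 and 20.7 CPM (-0.50 ± 0.11). EIF2AK3-DT (chr2:88627539-88631821, plus strand) rose from 1.19, 0.925 and 1.42 to 3.03, 3.29 and 3.53 CPM (1.47 ± 0.17). Its partner codes for PERK, the kinase that senses unfolded protein in the ER, and rose by 0.72 ± 0.07. With Arg-tRNA_Cys(GCA) the same pair parted: EIF2AK3 went from 32.7, 33.6 and 31.5 to 112, 116 and 98.7 CPM (1.74 ± 0.07), and EIF2AK3-DT stood at 1.83, 1.97 and 1.88 against 2.09, 1.69 and 1.53 CPM, not called (-0.10 ± 0.17, adjusted p = 0.637).

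The largest falls with Ser-tRNA_Arg(CCG) were in JAKMIP1-DT, FMNL1-DT and BOLA3-DT. JAKMIP1-DT went from 1.26, 0.600 and 1.01 to 0.178, 0.457 and 0.0726 CPM (-2.02 ± 0.37), the last a level near that of 3 counts. JAKMIP1, which codes for a microtubule-binding partner of Janus kinases, rose by 0.53 ± 0.18. GENCODE types JAKMIP1-DT as a pseudogene. No GENCODE position was found for JAKMIP1, so the gap between the 2 starts is not given. FMNL1-DT, beside the gene of a formin, fell from 2.52, 2.18 and 2.46 to 0.490, 0.697 and 0.799 CPM (-1.85 ± 0.24) with FMNL1 not called (0.13 ± 0.12). BOLA3-DT starts 15 bases from BOLA3, which codes for an iron-sulfur cluster factor of mitochondria. It fell from 4.32, 4.28 and 5.35 to 1.2, 1.66 and 1.11 CPM (-1.81 ± 0.15), and BOLA3 fell with it, from 13.5, 14.3 and 12.6 to 7.29, 7.21 and 6.97 CPM (-0.91 ± 0.11).

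With Arg-tRNA_Gln(CUG) no member was called by edgeR. Of all genes 0.273% rose and 0.278% fell. At an unadjusted p under 0.05, 3 members were higher and 9 lower, beside 1188 and 1082 of the 22321 genes tested, and DESeq2 called 1 fall. The groups did not overlap for 21 members (14.9%), against 16.2% of all genes, and the median log2 change was -0.08. With Arg-tRNA_His(GUG) 1 member rose and none fell, against 1.56% and 0.95% of all genes (2.51% in either direction), while 32 members had a lower level and 1 a higher one at an unadjusted p under 0.05, and DESeq2 called 4 falls. Of the 22321 genes tested 1716 were lower and 1913 higher at that unadjusted p. The single rise was again that of RRAGC-DT, from 1.41, 1.51 and 1.57 to 2.59, 2.03 and 2.23 CPM (0.61 ± 0.17, adjusted p = 0.0397), and RRAGC stood at 0.33 ± 0.10 (adjusted p = 0.0724). The call of RRAGC-DT was lost when any 1 of the 6 libraries was left out (adjusted p 0.0604 to 0.305), with log2 changes of 0.51 to 0.68. Below 0 lay the estimates of 110 members, with a median of -0.17 against -0.00 over all genes, and the groups did not overlap for 39 (27.7%), against 27.0%. Of the 315 -AS1 transcripts 241 lay below 0, with a median of -0.16. By edgeR 75 of them were lower and 8 higher at an unadjusted p under 0.05. Over the 4498 protein-coding genes in the members' range of mean CPM the median was -0.02. The summed level of the members was 771 ± 48.7 CPM with EGFP(R96H) and 692 ± 45.2 CPM with the mc-tRNA (SD, n = 3). It was 602 ± 14.2 and 575 ± 30 CPM with EGFP(R96Q) and its mc-tRNA.

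Partners and members parted in the same libraries. Of 140 tested partners 77 rose and 35 fell with Arg-tRNA_Cys(GCA) (median 0.29), and 69 rose and 26 fell with Arg-tRNA_Trp(CCA) (median 0.18). In 37 pairs the member fell while the partner rose with Arg-tRNA_Cys(GCA), and in 2 it was the reverse. Both fell in 24 pairs and both rose in 18. With Arg-tRNA_Trp(CCA) the member fell and the partner rose in 31 pairs, the reverse was seen in none, both fell in 12 and both rose in 1. With Ser-tRNA_Arg(CCG) the 56 pairs in which both were called fell into 16 with 2 rises, 15 with 2 falls, 15 with a fall of the member and a rise of the partner, and 10 of the reverse. The median difference of the log2 changes, member minus partner, was -0.87 with Arg-tRNA_Cys(GCA), -0.55 with Arg-tRNA_Trp(CCA), -0.18 with Arg-tRNA_His(GUG), -0.09 with Arg-tRNA_Gln(CUG) and 0.00 with Ser-tRNA_Arg(CCG). The member lay below its partner in 113, 115, 108, 95 and 69 of 140 pairs, in that order. No test of the difference was made for single pairs.

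**Figure D3:**
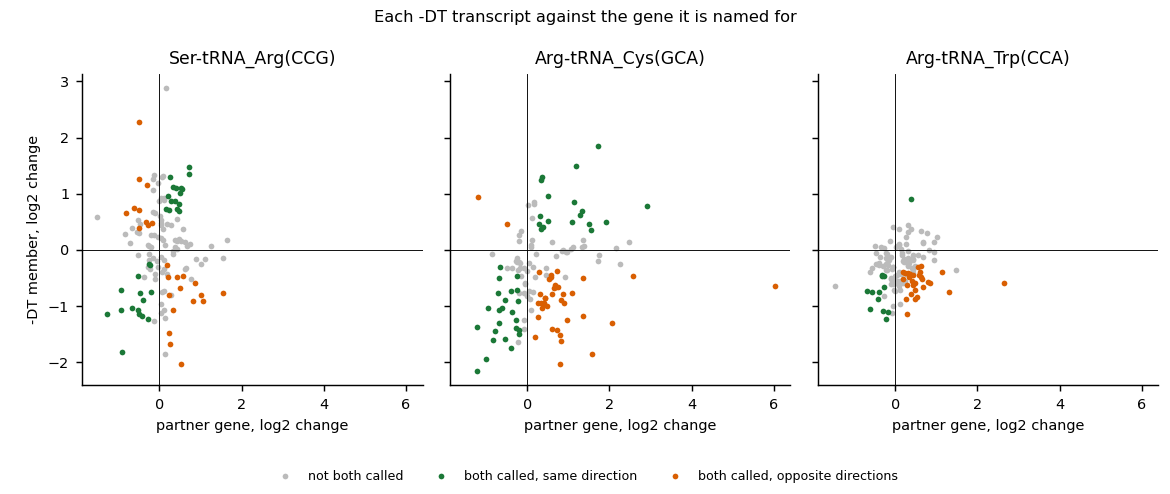
Log2 change of each -DT member (vertical axis) against that of its partner gene (horizontal axis) for 3 mc-tRNAs, 1 point per pair of 140; green and orange mark pairs in which both were called, in the same or in opposite directions. The orange points at the lower right, a fall of the member beside a rise of the partner, number 15, 37 and 31 from left to right.

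For scale, 1110 pairs of protein-coding genes with starts within 2 kb on opposite strands were read in the same way. With Arg-tRNA_Cys(GCA) both genes were called in 612 such pairs, of which 410 moved in the same direction, and among the members and partners 42 of 81 did so. With Arg-tRNA_Trp(CCA) it was 219 of 349 against 13 of 44, and with Ser-tRNA_Arg(CCG) 297 of 531 against 31 of 56. Across pairs, which are not independent replicates and share their libraries, Spearman's rho between the log2 changes of member and partner was 0.02 with Ser-tRNA_Arg(CCG), 0.30 with Arg-tRNA_Cys(GCA) and 0.14 with Arg-tRNA_Trp(CCA). Across the pairs of coding genes it was 0.11, 0.28 and 0.19. The level of members relative to partners was lower in every library with Arg-tRNA_Cys(GCA) or Arg-tRNA_Trp(CCA) than in any library of the same reporter alone. The median log2 ratio of member to partner, with 0.5 CPM added to both, was -3.35 to -3.18 in the EGFP(R96C) libraries and -4.13 to -3.88 with Arg-tRNA_Cys(GCA). It was -3.35 to -3.11 with EGFP(R96W) and -3.86 to -3.68 with Arg-tRNA_Trp(CCA). In the EGFP(R65) libraries, with and without the mc-tRNA, it was -4.32 to -4.08, and in the other 12 libraries -3.43 to -2.90.

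The 5 comparisons share no libraries, and several members recurred across them. The effects of the mc-tRNAs differed among the 5 comparisons for 111 members (78.7%) by edgeR's F-test, against 72.5% of all genes. Those that fell with both Arg-tRNA_Cys(GCA) and Arg-tRNA_Trp(CCA) numbered 45, which is 31.9% of the members against 12.9% of all genes, and 10 partners did so. Of the 45, 22 also fell with Ser-tRNA_Arg(CCG), which is 15.6% of all members against 7.02% of all genes, among them CENATAC-DT, EOLA2-DT, FMNL1-DT and HK2-DT, named for the hexokinase gene HK2; the last was chosen here after its values were seen. The Trp call of EOLA2-DT and of FMNL1-DT was lost without some single libraries, down to log2 changes of -0.48 and -0.41, and without the filter on low counts (adjusted p = 0.0766 and 0.0748). That of FMNL1-DT was also lost with RLE factors (adjusted p = 0.0515) and without the EGFP(R65) libraries (adjusted p = 0.0679). A rise with Ser-tRNA_Arg(CCG) and a fall with Arg-tRNA_Cys(GCA) were seen in 15 members, 10.6% of all members against 5.88% of all genes. A rise with Ser-tRNA_Arg(CCG) and a fall with Arg-tRNA_Trp(CCA) were seen in 14, 9.93% of all members against 3.6% of all genes. Such joint shares depend on those of the single comparisons: 53.9% and 44.0% of members fell with Arg-tRNA_Cys(GCA) and Arg-tRNA_Trp(CCA). Of all genes 30.5% and 21.7% did so. Recurrence beyond these shares was not tested. CTBP1-DT, GOT1-DT, SEPTIN7-DT, SNRPA1-DT, TRMT61A-DT and ZFAND2A-DT rose with Ser-tRNA_Arg(CCG) and fell with both others, which is 4.26% of the members and 1.92% of all genes. TRMT61A-DT fell from 5.52, 4.60 and 5.02 to 1.28, 1.98 and 1.53 CPM with Arg-tRNA_Cys(GCA) (-1.65 ± 0.15) and by 0.55 on the log2 scale with Arg-tRNA_Trp(CCA), where TRMT61A was not called in either (-0.22 ± 0.12 and 0.08 ± 0.12). GOT1-DT, beside the gene of the cytosolic aspartate aminotransferase, stood at -0.46 ± 0.20 with Arg-tRNA_Cys(GCA) while GOT1 rose from a mean of 94.1 to 564 CPM (2.58 ± 0.08). Both rises and falls were seen in ADGRB3-DT, EPM2A-DT, OSER1-DT and RIPK2-DT, which rose with Arg-tRNA_Cys(GCA) and fell with Arg-tRNA_Trp(CCA), 2.84% of the members and 3.17% of all genes. EPM2A-DT, named for the glycogen phosphatase laforin and starting over 2 kb from EPM2A, rose by 1.24 ± 0.24 and fell by 1.09 on the log2 scale. Called with none of the 5 mc-tRNAs were 16 members (11.3%, against 16.2% of all genes). One was DNAJC3-DT, at 0.14 ± 0.16 with Arg-tRNA_Cys(GCA), whose partner, an ER co-chaperone gene, rose by 2.49 ± 0.08.

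**Figure D4:**
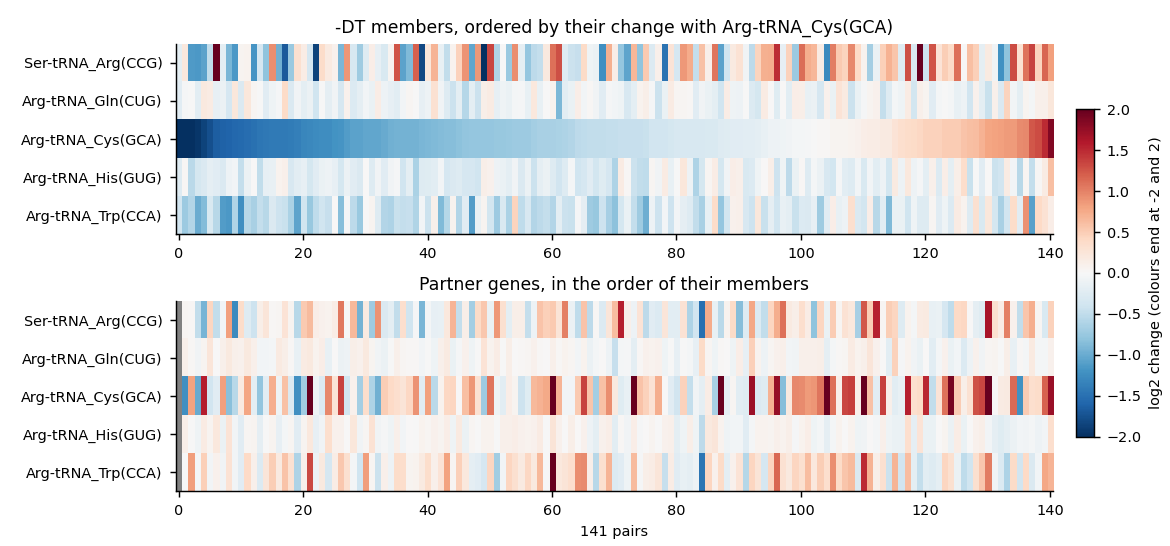
Log2 change with each mc-tRNA (rows, colour scale from -2 in blue to 2 in red) for the -DT members, ordered by their change with Arg-tRNA_Cys(GCA), and for their partners in the same order; the grey column is ZNF132, which was not tested. Blue columns, 76 falls with Arg-tRNA_Cys(GCA) and 62 with Arg-tRNA_Trp(CCA), take up more of the upper block than of the lower one, where 35 and 26 partners fell.

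For VPS13B-DT, EMSY-DT, PAXIP1-DT and TBC1D22A-DT no change reached 2-fold. PAXIP1-DT fell from 14, 16.3 and 19.2 to 7.80, 10.2 and 11.9 CPM with Arg-tRNA_Cys(GCA) (-0.73 ± 0.18), where PAXIP1 fell by 0.41 on the log2 scale. EMSY-DT fell with Arg-tRNA_Cys(GCA) (-0.38 ± 0.13) and with Arg-tRNA_Trp(CCA) (-0.42 ± 0.13), and EMSY rose with both (0.73 ± 0.09 and 0.25 ± 0.09). VPS13B-DT rose with Arg-tRNA_Cys(GCA), by 0.38 ± 0.16, which library totals turn to -0.16. Leaving out any library but EGFP(R96C) replicate 2 ended that call (0.25 to 0.36). TBC1D22A-DT was called in none of the 5 comparisons, with estimates from -0.23 ± 0.15 to 0.18 ± 0.16.

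Lists of factors that limit divergent transcripts were read in the same fit. Of 22 subunits and adaptors of the nuclear exosome 12 rose and 6 fell with Arg-tRNA_Cys(GCA), 14 rose and 1 fell with Arg-tRNA_Trp(CCA), 4 rose and 13 fell with Ser-tRNA_Arg(CCG), 1 rose with Arg-tRNA_His(GUG), and with Arg-tRNA_Gln(CUG) none was called by edgeR (1 up and 1 down at an unadjusted p under 0.05). The median log2 changes were 0.38, 0.26, -0.30, 0.03 and 0.01, in that order. As shares, 54.5% rose and 27.3% fell with Arg-tRNA_Cys(GCA), beside 30.2% and 30.5% of all genes. With Arg-tRNA_Trp(CCA) it was 63.6% and 4.55%, beside 20.7% and 21.7%, and with Ser-tRNA_Arg(CCG) 18.2% and 59.1%, beside 26.6% and 30.7%. TENT4B, the poly(A) polymerase that tags nuclear RNA for the exosome, rose by 2.38 ± 0.09 with Arg-tRNA_Cys(GCA), from a mean of 47.3 to 246 CPM, and by 0.96 ± 0.09 with Arg-tRNA_Trp(CCA). RBM7, the RNA-binding subunit of the exosome adaptor NEXT, rose by 1.68 ± 0.10 with Arg-tRNA_Cys(GCA). MPHOSPH6, an exosome cofactor, fell by 1.78 on the log2 scale with Ser-tRNA_Arg(CCG). The part of these factors in the levels of the -DT transcripts was not tested.

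Among 26 cap-binding, cleavage and termination factors 9 rose and 7 fell with Arg-tRNA_Cys(GCA), 10 rose with Arg-tRNA_Trp(CCA) and 11 rose and 8 fell with Ser-tRNA_Arg(CCG). ZC3H4, which restrains noncoding transcription, went from a mean of 64.3 to 23.6 CPM with Arg-tRNA_Cys(GCA) (-1.45 ± 0.13) and from 27.9 to 77.1 CPM with Ser-tRNA_Arg(CCG) (1.47 ± 0.13). PPP1R10, a targeting subunit of protein phosphatase 1 in transcription termination, likewise fell by 1.74 and rose by 2.05 on the log2 scale. With Arg-tRNA_His(GUG) 2 rose, the cap-complex factor SRRT (0.35 ± 0.10) and the cleavage factor CSTF3 (0.31 ± 0.06). Among 14 Integrator subunits, which end short transcripts at promoters, 4 rose and 6 fell with Arg-tRNA_Cys(GCA), 4 rose and 5 fell with Arg-tRNA_Trp(CCA) and 5 rose and 6 fell with Ser-tRNA_Arg(CCG). INTS6 and INTS3 fell by 0.40 and 0.38 on the log2 scale with Arg-tRNA_Trp(CCA). Of 20 pausing and elongation factors of RNA polymerase II 15 rose and 3 fell with Arg-tRNA_Cys(GCA), 11 rose with Arg-tRNA_Trp(CCA), and 11 rose and 4 fell with Ser-tRNA_Arg(CCG), where the PAF1 complex subunit LEO1 fell by 0.91 on the log2 scale. Of all genes, 30.2% rose and 30.5% fell with Arg-tRNA_Cys(GCA), 20.7% and 21.7% with Arg-tRNA_Trp(CCA) and 26.6% and 30.7% with Ser-tRNA_Arg(CCG). With Arg-tRNA_Cys(GCA) the 3 lists, in the order given, had 34.6%, 28.6% and 75% rises and 26.9%, 42.9% and 15% falls. With Arg-tRNA_His(GUG) 1.56% of all genes rose, beside 7.69% of the first list.

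Other sets set the scale for these counts. Of 315 antisense transcripts with symbols ending in -AS1 and a mean of at least 1 CPM, 49.2% fell and 15.9% rose with Arg-tRNA_Cys(GCA), and 41.6% fell and 6.67% rose with Arg-tRNA_Trp(CCA). The members' shares were 53.9% and 17.7%, and 44.0% and 2.13%. Of 4498 protein-coding genes within the members' range of mean CPM 41.4% fell and 29.3% rose with Arg-tRNA_Cys(GCA), and 34.8% fell and 16.3% rose with Arg-tRNA_Trp(CCA). Their medians were -0.15 with both mc-tRNAs. No test set these groups of genes against each other. The share of counts from the mitochondrial genome also moved with all 5 mc-tRNAs, with no overlap between groups. It was 5.15% to 6.00% with EGFP(R96C) and 3.5% to 3.74% with Arg-tRNA_Cys(GCA), and 4.53% to 5.07% with EGFP(R96W) and 2.90% to 3.25% with Arg-tRNA_Trp(CCA). It was likewise lower with Ser-tRNA_Arg(CCG) (2.80% to 2.87%, against 3.34% to 3.52%) and with Arg-tRNA_Gln(CUG) (4.23% to 4.37%, against 4.46% to 4.64%). With Arg-tRNA_His(GUG) it was higher (5.44% to 5.76%, against 4.83% to 4.99%). This share, like the marker sums, is of library totals, by which the median log2 change of all genes was -0.59 with Arg-tRNA_Cys(GCA). The part of the mitochondrial share in the results was not tested.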

How the data were processed

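Polyadenylated RNA was sequenced from 30 libraries of HEK293 cells. The deposited values are raw read counts per gene, with no normalization by the authors. Per the submitters' processing notes, STAR, SAMtools and featureCounts were used with hg38. Tool versions and the annotation were not given in the sources used here, nor was the strand setting. Symbols came from a table of gene IDs, and positions from GENCODE release 29. The 92 spike-in rows were left out of totals and tests.

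Counts were fitted with edgeR 4.0.16 (R 4.3.3) over all 30 libraries with 1 mean per group, TMM scaling, filterByExpr with a minimum count of 10 and the robust quasi-likelihood test, leaving 22321 genes and 20 residual degrees of freedom. Benjamini-Hochberg adjusted p-values ran over all tested genes, and a call means an adjusted p under 0.05. Printed CPM are TMM-scaled, except in the member rule, the levels per kilobase and the marker sums, which use library totals. The standard error of a log2 change is its size divided by the square root of the quasi-likelihood F. The fit was tested on simulated data. All members passed the filter. P-values measure the spread between replicates that the protocols call independent. Counting limits cover counting error only.

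The members, partners and gene lists were chosen with earlier results of these data known. In each comparison the text names the 3 largest rises and 3 largest falls among called members whose groups did not overlap, the 2 pairs called in opposite directions with the largest difference, the 5 members highest per kilobase, those next to the limit of the rule, and up to 2 rises and 2 falls among the listed factors. Members named under recurring patterns, and DNAJC3-DT, were chosen after their values were seen. Some items that this rule selects are not reported here. Alternatives were RLE factors, library totals, no filter, DESeq2 1.42.0, a replicate block, fewer libraries, each library left out and other limits of the member rule.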

Additional observations from a re-analysis of the deposited data

Results flagged for a closer look

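The effects of the 5 mc-tRNAs differed for 111 members (78.7%) by edgeR's F-test on the difference between the comparisons, and for 72.5% of all genes tested. Among the members named above the adjusted p of that test was 3.84e-16 for TRMT61A-DT, 3.89e-12 for ISL1-DT, 4.34e-11 for UBA6-DT and 6.5e-10 for BOLA3-DT. It was 1.17e-08 for EIF2AK3-DT, 5.67e-08 for ZFAND2A-DT, 6.02e-08 for RRAGC-DT, 1.32e-07 for MRPL20-DT and 2.19e-07 for ZNF132-DT. It was 3.2e-06 for CENATAC-DT, 1.03e-05 for FOXF2-DT, 4.77e-05 for RNF139-DT, 5.94e-05 for ARNT2-DT and 8.28e-05 for FMNL1-DT. It was 0.00011 for EOLA2-DT, 0.000412 for JAKMIP1-DT, 0.000646 for ANKHD1-DT, 0.00309 for AJUBA-DT and 0.00351 for ATP6V0D1-DT. It was 0.0323 for VPS13B-DT and 0.0378 for EMSY-DT. The largest single rises lay with Ser-tRNA_Arg(CCG) for ISL1-DT and TRMT61A-DT and with Arg-tRNA_Cys(GCA) for RRAGC-DT and UBA6-DT.

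Counts of the ERCC spike-in RNAs, which enter no comparison, reached 106 in 1 of the EGFP(R96) libraries and were 0 in the 6 EGFP(R65) libraries.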

How the results depend on the processing

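The number of members that rose with Arg-tRNA_Cys(GCA) was 6 with library totals and 16 with a member limit of 2 CPM, against 25. With Ser-tRNA_Arg(CCG) 70 rose at a limit of 0.5 CPM and 28 at 2 CPM, against 44, as fewer or more genes are members. DESeq2 called 1 fall with Arg-tRNA_Gln(CUG). With Arg-tRNA_His(GUG) the number of rises was 0 without the filter, without the EGFP(R65) libraries and in all 6 fits that left out 1 library (0 to 0). The number of falls there was 1 with library totals, 2 without the filter, 10 with only the 6 libraries compared, 4 with DESeq2, and 0 to 2 with 1 library left out. With Arg-tRNA_Trp(CCA) leaving out 1 library gave 2 to 5 rises and 41 to 60 falls. The cause was not tested for the other changes. Library totals turned ISL1-DT to -0.13 and VPS13B-DT to -0.16 with Arg-tRNA_Cys(GCA), where they moved the median of all genes to -0.59. With Arg-tRNA_His(GUG) they made 50.0% of the called members rises, against 100%, which is 1 rise and 1 fall against 1 rise. Of 196 alternative counts 174 lay within 1.5 times the main count. Of 711 alternative values for 56 called changes of named members 638 kept direction and call, 71 lost the call and 2 reversed. Members chosen on the 24 libraries outside each comparison, an alternative added after seeing the data, gave 25 rises and 77 falls with Arg-tRNA_Cys(GCA) and 3 and 62 with Arg-tRNA_Trp(CCA).

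Same-numbered libraries deviated together only weakly (correlations from -0.0772 to 0.14), and not every library matched its own number best, so the numbers were not taken to pair them. With a replicate block 7 members fell with Arg-tRNA_His(GUG), 25 rose and 75 fell with Arg-tRNA_Cys(GCA), and 4 rose and 69 fell with Arg-tRNA_Trp(CCA). At these depths members under about 1 CPM rest on few counts.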
